A study of Mus musculus with 6 samples.

Results

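Resting regulatory T (Treg) cells are held in a quiet state by a set of transcription factors, and leave tissue through S1PR1, the receptor for sphingosine 1-phosphate that draws lymphocytes out of lymph nodes. The genes described here are *Tcf7*, *Lef1*, *Bach2*, *Satb1*, *Foxo1*, *Foxp1*, *Klf2*, *Klf3*, *Id3* and *S1pr1*, taken by their symbol from the deposited count table. All 10 were among the 24420 genes of the table, and 10 of 10 were among the 10949 genes tested. RNA was sequenced from YFP+ Treg cells that were enriched with CD4 beads and sorted from C57BL/6 female mice, with lymph nodes given as the tissue in the labels. The 3 OGT-sufficient samples came from mice of the genotype Foxp3YFP-Cre/wt Ogtwt/fl, and the 3 OGT-deficient samples from mice of the genotype Foxp3YFP-Cre/wt Ogtfl/fl. How many mice gave each sample was not stated. The mice of all 6 samples thus carried the YFP-Cre allele and at least 1 floxed copy of *Ogt*. This gene encodes O-GlcNAc transferase, the enzyme that puts the sugar O-GlcNAc on nuclear and cytoplasmic proteins. The labels name no treatment and no age. For mice other than the knockout males and their controls the paper gives a general age range, with no separate age for these samples. Cre was expressed from the X-linked *Foxp3* gene, so in these females YFP marked only the Treg cells in which the chromosome with Cre was active. Whether the floxed allele of the Ogtwt/fl mice lay on that chromosome was not stated, and their cells are called OGT-sufficient as in the study's naming. The comparison asks which transcripts depend on OGT in Treg cells of mice without inflammation.

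FOXO1 and FOXP1 are forkhead factors of naive lymphocytes. FOXO1 drives the gene for KLF2, and KLF2 in turn drives *S1pr1*. TCF1, the product of *Tcf7*, and LEF1 are HMG-box partners of beta-catenin, SATB1 organises chromatin, BACH2 represses effector genes, KLF3 is a repressor that competes for KLF sites, and ID3 blocks E proteins.

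Total counts were between 3375454 and 4103552 per sample, of which the ribosomal RNA gene *Rn45s* took between 24.2% and 37.1%. Levels are CPM, which relate each count to a library size scaled by edgeR's TMM method. They are given for replicates 1, 2 and 3 in that order, with mean ± SD over n = 3 samples. Counts of the 10 genes were between 77 and 2488 per sample, so none was near the limit of detection. *Ogt* itself was at 150.2, 170.3 and 252 CPM in the OGT-sufficient samples and at 84.4, 67.3 and 96.4 CPM in the OGT-deficient samples, with no overlap (log2 fold change -1.21, standard error or SE 0.21, edgeR quasi-likelihood adjusted p = 0.191). *Foxp3*, the gene that defines the lineage, was present in all samples, at 189 to 300.4 CPM in the OGT-sufficient and 249.7 to 292 CPM in the OGT-deficient samples. With it, the Treg list held *Il2ra*, *Ctla4*, *Ikzf2*, *Tnfrsf18*, *Cd4* and *Cd3e*. Of the 7 genes 6 had a log2 fold change above 0. *Il2ra* (0.44, edgeR adjusted p = 0.704) and *Tnfrsf18* (0.57, 0.685) were higher without overlap. Both differences were smaller without OGT-sufficient replicate 3, at 0.24 and 0.31 (edgeR unadjusted p = 0.0827 and 0.0434). *Ikzf2* was at -0.26 (0.762), and at -0.39 without OGT-sufficient replicate 3 (edgeR unadjusted p = 0.013). Transcripts of other cell types were present as well. The summed level of 8 macrophage genes was 3056, 2558 and 1410 CPM in the OGT-sufficient and 993, 3553 and 4326 CPM in the OGT-deficient samples. OGT-sufficient replicate 3 stood apart, with a count in 18346 genes against 14412 to 15197 in the other 5 samples. It also had the highest summed levels of 7 B cell genes (355 CPM against 91.5 to 158), 5 erythroid genes (849 against 218 to 482) and 6 neutrophil genes (147 against 7.22 to 29.1). Its mean log2 level of the 7 Treg genes was the lowest (7.71 against 8.17 to 8.38). The CD8 T cell genes summed to 12.1 to 26.6 CPM, while the endothelial list (151 to 216 CPM) was nearly all *Pecam1*, with *Tek* and *Tie1* at 0 in every sample but OGT-sufficient replicate 3. The precursor list summed to 30.3 CPM in OGT-sufficient replicate 3, mainly *Rag1* at 23.4 CPM, and to at most 3.77 CPM elsewhere. Values without OGT-sufficient replicate 3 are given below where leaving it out moved a named gene across an unadjusted p of 0.05.

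*Klf2* and *Klf3* were the members that separated the groups. Both were higher in every OGT-deficient sample than in any OGT-sufficient sample, by 43.1% for *Klf2* and 32.3% for *Klf3*. *Tcf7* was the only member with a negative fitted change in the reported fit, where *Bach2* was near 0 and took a negative sign in 5 of 16 alternative settings, and 7 members were below 0 when scaled to T cell genes. The groups of *Tcf7* overlapped, as did those of the other 7 members. After adjustment over all genes tested 0 of 10 members passed an FDR of 0.1, against 3 of all 10949 genes (0.0274%). At an unadjusted p under 0.05, 2 of 10 members were higher and 0 lower, beside 3.09% of all genes higher and 4.01% lower. The groups did not overlap for 2 members that were higher in OGT-deficient cells and for 0 that were lower, beside 5.72% and 7.48% of all genes. The fitted log2 fold change was above 0 for 9 of 10 members, beside 47.3% of all genes. The members' median log2 fold change was 0.20, and the median over all genes was -0.02. The members share samples and move together between them, so these counts are not independent of each other.

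**Figure D1:**
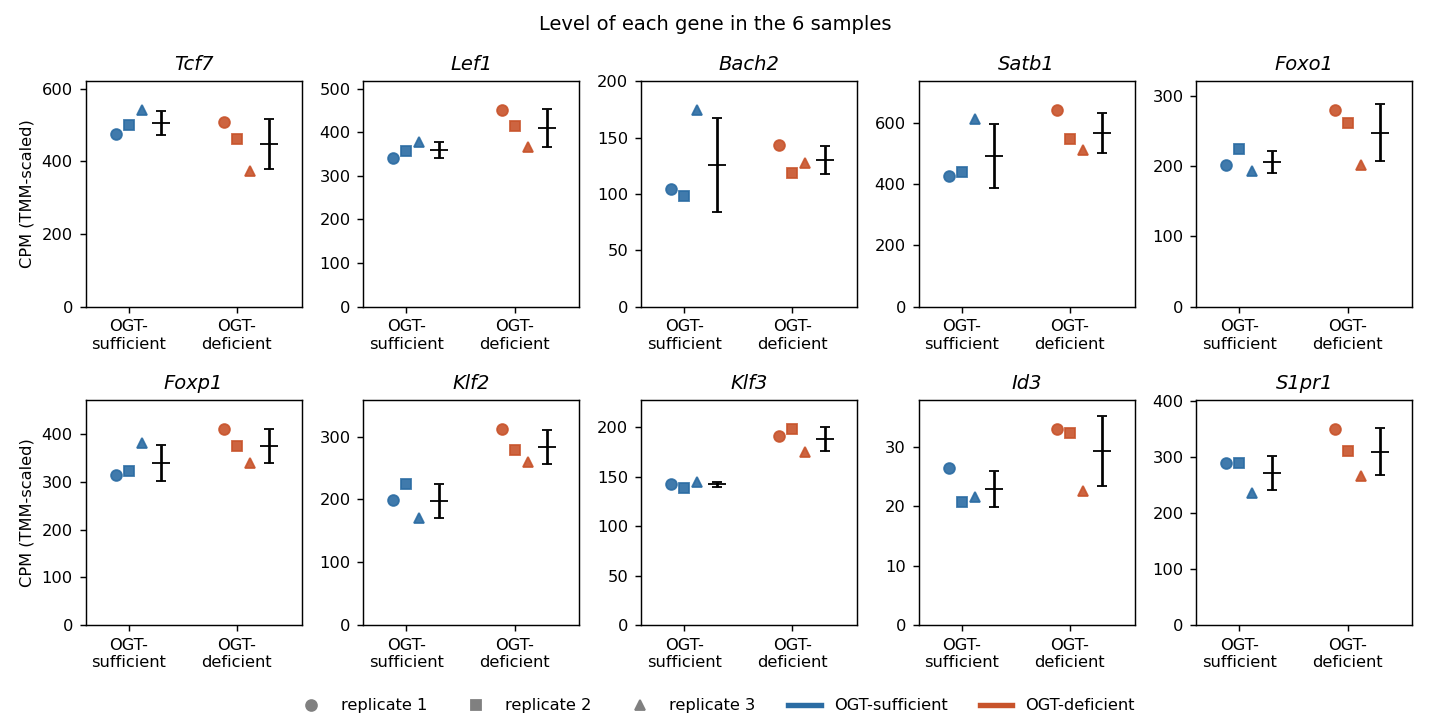
Level of each of the 10 genes in CPM (vertical axis from 0) in the 3 OGT-sufficient (blue) and 3 OGT-deficient (orange) samples, with the marker shape giving the replicate number and the black bar the mean ± SD. *Klf2* and *Klf3* are the only panels in which all OGT-deficient points lie above all OGT-sufficient points.

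*Klf2* encodes the factor best known for keeping naive lymphocytes quiet and for their exit from lymph nodes. Its level was 199, 225 and 171 CPM in the OGT-sufficient samples and 312, 279 and 259.7 CPM in the OGT-deficient samples. The lowest OGT-deficient sample thus lay above the highest OGT-sufficient sample. The means were 198 ± 27.3 and 284 ± 26.7 CPM (SD, n = 3 each). The fitted log2 fold change was 0.52 (SE 0.14, 95% interval 0.21 to 0.82). The edgeR quasi-likelihood test gave an unadjusted p of 0.00409 and an adjusted p = 0.405, so the difference did not pass. Without a low-count filter *Klf2* passed, with an adjusted p = 0.065, and this was 1 of 16 alternative settings. *Klf2* lies at chr8:72319033-72321656 on the plus strand (GRCm38, GENCODE M21), and no other annotated exon overlaps it. Proximal promoters were sought for *Klf2* and *Klf3*, the members whose groups did not overlap. That of *Klf3* had too few bases in a row outside annotated exons, so only that of *Klf2* is shown. The 221 bases at chr8:72318812-72319032 (RefSeq, GRCm38.p6, plus strand) end at the first annotated exon, 29 bases before the RefSeq start, with GC boxes (GGGCGG) and a MEF2 consensus in capitals.
Klf2 promoter: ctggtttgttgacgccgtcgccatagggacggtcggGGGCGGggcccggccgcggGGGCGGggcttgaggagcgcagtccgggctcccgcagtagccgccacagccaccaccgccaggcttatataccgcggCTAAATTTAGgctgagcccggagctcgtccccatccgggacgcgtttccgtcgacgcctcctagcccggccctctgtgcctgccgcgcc
Both strands were searched, and the MEF2 consensus was added to the search after the sequence had been read. The run holds 2 GC boxes and 1 MEF2 consensus, which are present in 32.9% and 3.01% of 27025 promoters of 250 bases. It holds 0 KLF cores (CACCC, in 51.3% of promoters), but the whole window of 250 bases, the length behind these shares, holds 1, in the 29 bases left out. Over that whole window there are 0 forkhead motifs (GTAAACA, 3.09%), 0 TCF/LEF cores (CTTTGA, 14%) and 0 STAT motifs (TTCNNNGAA, 7.18%), and the counts of GC boxes and of the MEF2 consensus are those of the run. The matches are a description of these letters only.

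*Klf3* encodes a repressor of the same family. It was at 143, 139 and 145 CPM in the OGT-sufficient samples, the narrowest spread of any member, and at 191, 198 and 175 CPM in the OGT-deficient samples. Every OGT-deficient sample was above every OGT-sufficient one. The means were 142 ± 2.85 and 188 ± 11.9 CPM (SD, n = 3 each), and the fitted log2 fold change was 0.40 (SE 0.10, 95% interval 0.17 to 0.64). The unadjusted p was 0.00388 and the edgeR adjusted p = 0.401, the lowest among the members. *Klf3* (chr5:64803388-64832901, plus strand) overlaps exons of Gm20033 on the opposite strand, and since the strand setting of the counting was not given, reads of the pair cannot be told apart.

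*S1pr1* encodes the egress receptor and is a target of KLF2. Its samples were at 289, 289 and 236 CPM with OGT and at 351, 312 and 267 CPM without it. The groups overlapped, with OGT-deficient replicate 3 below OGT-sufficient replicates 1 and 2. The log2 fold change was 0.19 (SE 0.14, 95% interval -0.12 to 0.51, unadjusted p = 0.204 and adjusted p = 0.794 by edgeR's test over all genes). The interval covers both a slightly lower level and one nearly as much higher as that fitted for *Klf2*. When OGT-sufficient replicate 3 and OGT-deficient replicate 1, which had the lowest macrophage sums of their groups, were both left out, the log2 fold change of *S1pr1* was 0.00 and that of *Klf2* 0.35 (unadjusted p = 0.011). *S1pr1* (chr3:115710433-115715072, minus strand) has no overlapping exon.

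*Foxo1* and *Foxp1*, the forkhead members, did not separate the groups. *Foxo1* was at 202, 224 and 193 CPM in the OGT-sufficient samples and at 279.9, 263 and 202 CPM in the OGT-deficient samples. Only OGT-deficient replicate 3 lay within the OGT-sufficient range. The log2 fold change was 0.27 (SE 0.14, edgeR unadjusted p = 0.0957, adjusted p = 0.754). Without OGT-deficient replicate 3 it was 0.43, with an unadjusted p of 0.0123. *Foxp1* was at 314, 322 and 382 CPM against 411, 375 and 339.9 CPM. Here OGT-sufficient replicate 3 lay among the OGT-deficient samples, and the log2 fold change was 0.15 (SE 0.13, adjusted p = 0.845), or 0.25 without that library (unadjusted p = 0.0635) and 0.08 without OGT-deficient replicate 1. *Foxo1* (chr3:52268336-52353221, plus strand) overlaps the antisense gene Gm20402, and *Foxp1* (chr6:98925338-99522721, minus strand) overlaps Gm20696 and the miRNA gene Gm49348 on its own strand, so both levels may hold reads of these genes.

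*Tcf7*, the member with the highest mean level per kilobase of annotated exon, was at 475, 499.7 and 541 CPM in the OGT-sufficient samples and at 509, 461 and 372 CPM in the OGT-deficient samples. OGT-deficient replicates 2 and 3 lay below all OGT-sufficient samples, and OGT-deficient replicate 1 lay among them. The log2 fold change was -0.17 (SE 0.14, 95% interval -0.49 to 0.14, edgeR adjusted p = 0.818). The sign held with each sample left out, but the size rested on single libraries, at -0.02 without OGT-deficient replicate 3 (unadjusted p = 0.865) and -0.28 without OGT-deficient replicate 1 (unadjusted p of 0.109). Its partner *Lef1* was at 342, 356 and 379 CPM against 450.2, 414 and 365 CPM, a log2 fold change of 0.19 (SE 0.12, adjusted p = 0.769). *Lef1* thus had the opposite sign, with OGT-deficient replicate 3 inside the OGT-sufficient range. *Satb1*, a chromatin organiser of the T lineage, was at 426, 439.9 and 614 CPM against 642, 547 and 513 CPM (log2 fold change 0.20, SE 0.17, adjusted p = 0.829). A single sample, OGT-sufficient replicate 3, made the *Satb1* groups overlap. Without that library the *Satb1* log2 fold change was 0.40 with an unadjusted p of 0.0121 and an adjusted p = 0.582. *Tcf7* (chr11:52252371-52283014, minus strand) has no overlapping exon, *Lef1* (chr3:131110471-131224356, plus strand) overlaps Gm43352 on the opposite strand, and *Satb1* (chr17:51736187-51833290, minus strand) overlaps Gm36931 and Gm6934.

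*Bach2*, which encodes the repressor of effector genes, was at 104, 98.3 and 174 CPM in the OGT-sufficient and at 143, 119 and 127 CPM in the OGT-deficient samples. OGT-sufficient replicate 3, the library with the most B cell transcripts, was the highest of the 6, and B cells are known to express *Bach2*. The log2 fold change was 0.05 (SE 0.21, edgeR adjusted p = 0.972). Without that library it was 0.37, with an unadjusted p of 0.0172 and an adjusted p = 0.649, so the value of this member rests on that library, and the part of the B cell transcripts in it was not tested. *Bach2* (chr4:32238804-32586108, plus strand) overlaps its antisense gene Bach2os. *Id3*, which encodes an inhibitor of E proteins, had the lowest CPM of the members before any correction for length, 26.5, 20.7 and 21.6 CPM against 33.0, 32.4 and 22.5 CPM. OGT-deficient replicate 3 was again within the OGT-sufficient range, and the log2 fold change was 0.35 (SE 0.19, unadjusted p = 0.0989, adjusted p = 0.754). *Id3* (chr4:136143497-136145755, plus strand) has no overlapping exon.

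The members varied together between samples rather than only between groups. OGT-deficient replicate 1 was the highest of the 6 samples for 7 members (*Lef1*, *Satb1*, *Foxo1*, *Foxp1*, *Klf2*, *Id3* and *S1pr1*), OGT-deficient replicate 2 for *Klf3*, and OGT-sufficient replicate 3 for *Tcf7* and *Bach2*. The mean centred log2 CPM of the 10 genes stood at -0.15, -0.14 and -0.04 in the OGT-sufficient samples and at 0.26, 0.13 and -0.07 in the OGT-deficient samples, so OGT-deficient replicate 3 lay within the OGT-sufficient range. OGT-deficient replicate 1 also had the lowest macrophage sum, and OGT-deficient replicate 3 the highest. In bulk samples fewer cells of a type and less RNA per cell cannot be told apart. With the level of the macrophage list as a covariate, an alternative chosen after seeing the data, the log2 fold changes of *Klf2* and *Klf3* were 0.52 and 0.41, with unadjusted p of 0.00243 and 0.00357. General T cell genes and *Cd4* showed a like tilt. Of 7 such genes (*Cd2*, *Cd3d*, *Cd3e*, *Cd3g*, *Cd4*, *Cd5* and *Cd247*), 7 had a log2 fold change above 0, from 0.12 for *Cd4* to 0.42 for *Cd2*. When counts were scaled to the sum of these genes, also chosen after seeing the data, the members' median log2 fold change was -0.07 and that of all genes -0.27. On that scale 3 of 10 members were above 0, among them *Klf2* at 0.27 and *Klf3* at 0.14, with unadjusted p of 0.149 and 0.477. *Tcf7* was at -0.46 there, with an edgeR unadjusted p of 0.0373 and an adjusted p = 0.493. The members' median lay above that of all genes by 0.21 in the TMM scale and by 0.19 in the T cell scale. A change of scaling moves all genes by about the same amount. The likeness of these differences was thus fixed in advance and is no separate check. Of all genes with an unadjusted p under 0.05, 56.5% were lower in OGT-deficient cells with TMM scaling and 95.5% with T cell scaling, against 67.4% with library size alone.

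**Figure D2:**
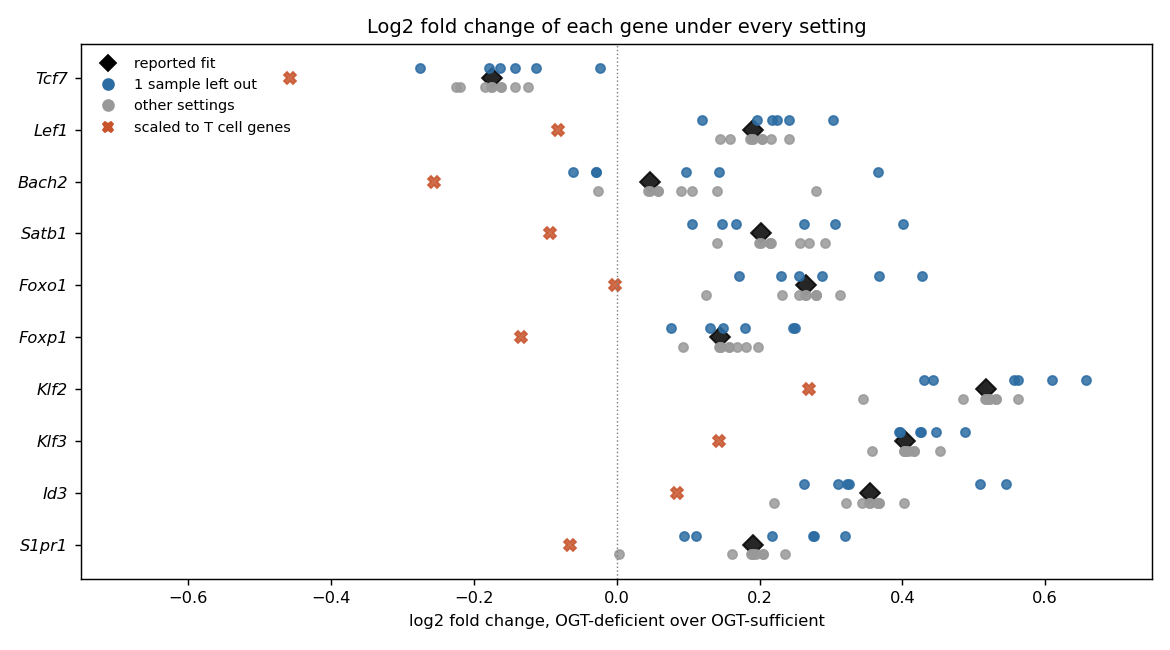
Log2 fold change of each gene, OGT-deficient over OGT-sufficient (horizontal axis), in the reported fit (diamond), with each sample left out (blue), in the other settings (grey) and with counts scaled to 7 T cell genes (cross). *Klf2*, *Klf3* and *Id3* are above 0 and *Tcf7* is below 0 in every setting, and the T cell scale lies below the other settings for each gene.

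Ratios of counts within a sample do not depend on the scaling of the libraries, and they are given here after the levels had been seen. The *Tcf7* to *Lef1* ratio was 1.39, 1.40 and 1.43 with OGT, against 1.13, 1.11 and 1.02 without it. The ratio was thus lower in every OGT-deficient sample, with means of 1.41 ± 0.0193 and 1.09 ± 0.0599 (SD, n = 3 each). The difference of -0.37 in log2 exceeded the SDs between replicates (0.0198 and 0.0807) and the counting error of a single sample (at most 0.0544). This pair had the largest gap relative to the pooled SD (6.32) among the 45 member pairs, so these margins are those of an extreme pair. A two-sided exact permutation test gave p = 0.1, the smallest value that 3 samples against 3 allow. Any pair without overlap has this p, so the test adds nothing to the lack of overlap. *Tcf7* was lower in OGT-deficient cells relative to 8 of the other 9 members without overlap, the exception being *Bach2*. Relative to *Klf2* it was at 2.39, 2.22 and 3.17 against 1.63, 1.66 and 1.43. The ratio of *Klf2* to its target *S1pr1* was 0.687, 0.779 and 0.722 against 0.891, 0.893 and 0.972, again without overlap, while that of *Klf2* to *Klf3* overlapped (1.39, 1.62 and 1.18 against 1.64, 1.40 and 1.48). In all, 14 of 45 member pairs did not overlap (31.1%), and each of the 14 held *Tcf7*, *Klf2* or *Klf3*. Pairs share members and are not independent. Over all pairs of tested genes with a count in every sample, 13.2% did not overlap.

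**Figure D3:**
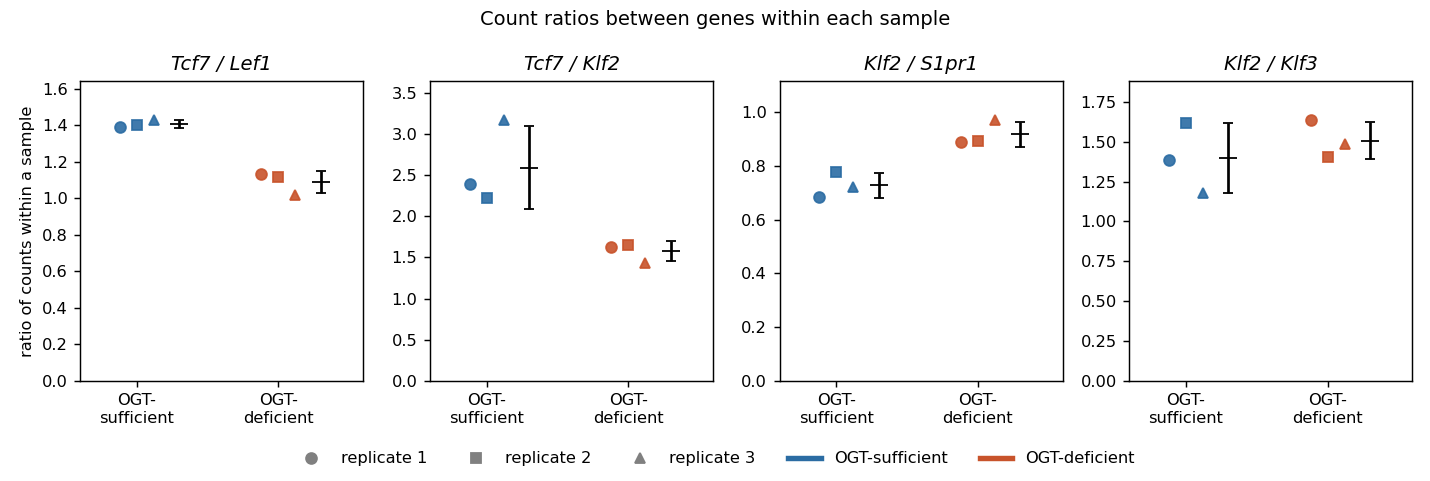
Ratio of counts between 2 genes within each sample (vertical axes from 0), for OGT-sufficient (blue) and OGT-deficient (orange) samples, with the mean ± SD as a black bar. The *Tcf7* to *Lef1* ratio lies between 1.39 and 1.43 with OGT and between 1.02 and 1.13 without it, while the *Klf2* to *Klf3* ratio overlaps.

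Levels of different genes were compared per kilobase of annotated exon (CPM per kb, GENCODE M21). This length merges the exons of all annotated transcripts of a gene, so it can exceed the length of the transcripts present. In OGT-sufficient cells the order was *Tcf7* (192 CPM per kb), *Klf2* (107), *S1pr1* (89.1), *Lef1* (40.9), *Satb1* (25.9), *Foxp1* (24.7), *Foxo1* (23.8), *Id3* (12.8), *Klf3* (12.6) and *Bach2* (12.6). Neighbours whose samples overlapped were *Klf2* and *S1pr1*, *Satb1* and *Foxp1*, *Foxp1* and *Foxo1*, *Id3* and *Klf3*, and *Klf3* and *Bach2*. In OGT-deficient cells *Tcf7* was at 170.5 ± 26.4 and *Klf2* at 154 ± 14.5 CPM per kb (SD, n = 3 each), and here the samples of the first pair overlapped, while *Klf2* no longer overlapped with *S1pr1* at 102 ± 13.7. The order below was *Lef1* (46.6), *Satb1* (29.8), *Foxo1* (28.6), *Foxp1* (27.3), *Klf3* (16.7), *Id3* (16.4) and *Bach2* (13.1). Here the samples of *Satb1* and *Foxo1*, *Foxo1* and *Foxp1*, *Klf3* and *Id3*, and *Id3* and *Bach2* overlapped. The order of *Foxo1* and *Foxp1*, and that of *Klf3* and *Id3*, was thus not resolved in either group.

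Other genes downstream of FOXO1 and KLF2 were described beside the members. Of 9 such genes 2 were higher at an unadjusted p under 0.05, 0 were lower and 0 passed an FDR of 0.1, and their median log2 fold change was 0.17. *Ccr7*, for the chemokine receptor of lymph node entry, was at 122, 127 and 103 CPM with OGT and at 156, 137 and 144 CPM without it, with no overlap (log2 fold change 0.31, SE 0.12, edgeR adjusted p = 0.668). *Bcl2l11*, for the death factor BIM, had a log2 fold change of 0.40 (SE 0.16, adjusted p = 0.666), and its nearest samples were both at 119 CPM, so the lack of overlap is within counting error. The most abundant of the 9 were the integrin gene *Itgb7*, at 0.33 (SE 0.16, adjusted p = 0.725), and *Il7r*, for the interleukin 7 receptor, at -0.01 (SE 0.29, adjusted p = 0.997). Without OGT-sufficient replicate 3, the unadjusted p was 0.0678 for *Ccr7* and 0.0577 for *Bcl2l11*. In the T cell scale neither had an unadjusted p under 0.05 (0.728 and 0.479).

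In the sphingosine 1-phosphate list of other receptors, enzymes and receptor control, 9 of 12 genes were tested, and 1 was higher and 0 lower at an unadjusted p under 0.05 (median log2 fold change 0.31, 0 at an FDR of 0.1). This was *Sgpp1*, the phosphatase that degrades sphingosine 1-phosphate, with a log2 fold change of 0.41 (SE 0.16, edgeR adjusted p = 0.668) and overlapping groups. Without OGT-sufficient replicate 3 *Sgpp1* was at 0.31 (unadjusted p = 0.0804) and the list's median at 0.19, and in the T cell scale they were at 0.17 (unadjusted p of 0.4) and 0.06. *Gnai2*, the G protein subunit through which S1PR1 signals, was at 0.13 and *Adrbk1*, the kinase GRK2 that desensitises it, at -0.15 (adjusted p = 0.889 and 0.81). *S1pr5*, *Sphk1* and *Spns2* were not tested because of low counts. Of 13 tested genes among 14 other quiescence genes 1 was higher, *Zfp36l2*, an RNA-binding protein that destabilises AU-rich transcripts. *Zfp36l2* was at 320.4, 335 and 290.1 CPM against 432, 389 and 472 CPM with no overlap (log2 fold change 0.45, SE 0.12, unadjusted p = 0.00452, adjusted p = 0.421), and in the T cell scale at 0.22 (unadjusted p of 0.304). The anti-proliferative gene *Btg1* was at 0.04 and *Slfn2* at 0.23 (adjusted p = 0.944 and 0.784), and the median of this list was 0.11.

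Relatives and partners of the factors were read from the same fit. Of 15 tested paralogs and binding partners among 17, 0 were higher and 2 lower at an unadjusted p under 0.05, and their median log2 fold change was 0.00. *Klf10*, a KLF repressor induced by TGF-beta, was at 35.5, 33.7 and 32.6 CPM with OGT and at 24.2, 24.0 and 25.4 CPM without it, so *Klf10* was below in every OGT-deficient sample, opposite in sign to *Klf2* and *Klf3* (log2 fold change -0.47, SE 0.13, unadjusted p = 0.00631, edgeR adjusted p = 0.465). *Foxp4*, a paralog of *Foxp1*, had a log2 fold change of -0.36 (SE 0.15, adjusted p = 0.673) with overlapping groups, and -0.33 without OGT-sufficient replicate 3 (unadjusted p = 0.0739). The most abundant relatives, *Klf13* and *Klf6*, were at 0.17 and 0.04 (adjusted p = 0.785 and 0.964). *Foxp2* and *Id1* were not tested. In the list of TCF and LEF partners and Wnt targets, 0 of 11 genes had an unadjusted p under 0.05, and the median was -0.10. Its most abundant genes by mean level over the 6 samples were *Aes* and *Tle3*, which encode proteins of the TLE family. *Aes* was at 0.36 (SE 0.17, unadjusted p = 0.0649, adjusted p = 0.722), the largest positive value of the list, and *Tle3* at -0.10 (adjusted p = 0.889), both with overlapping groups. *Ctnnb1*, for beta-catenin, named outside the rule, was at 0.03 (adjusted p = 0.959).

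**Figure D4:**
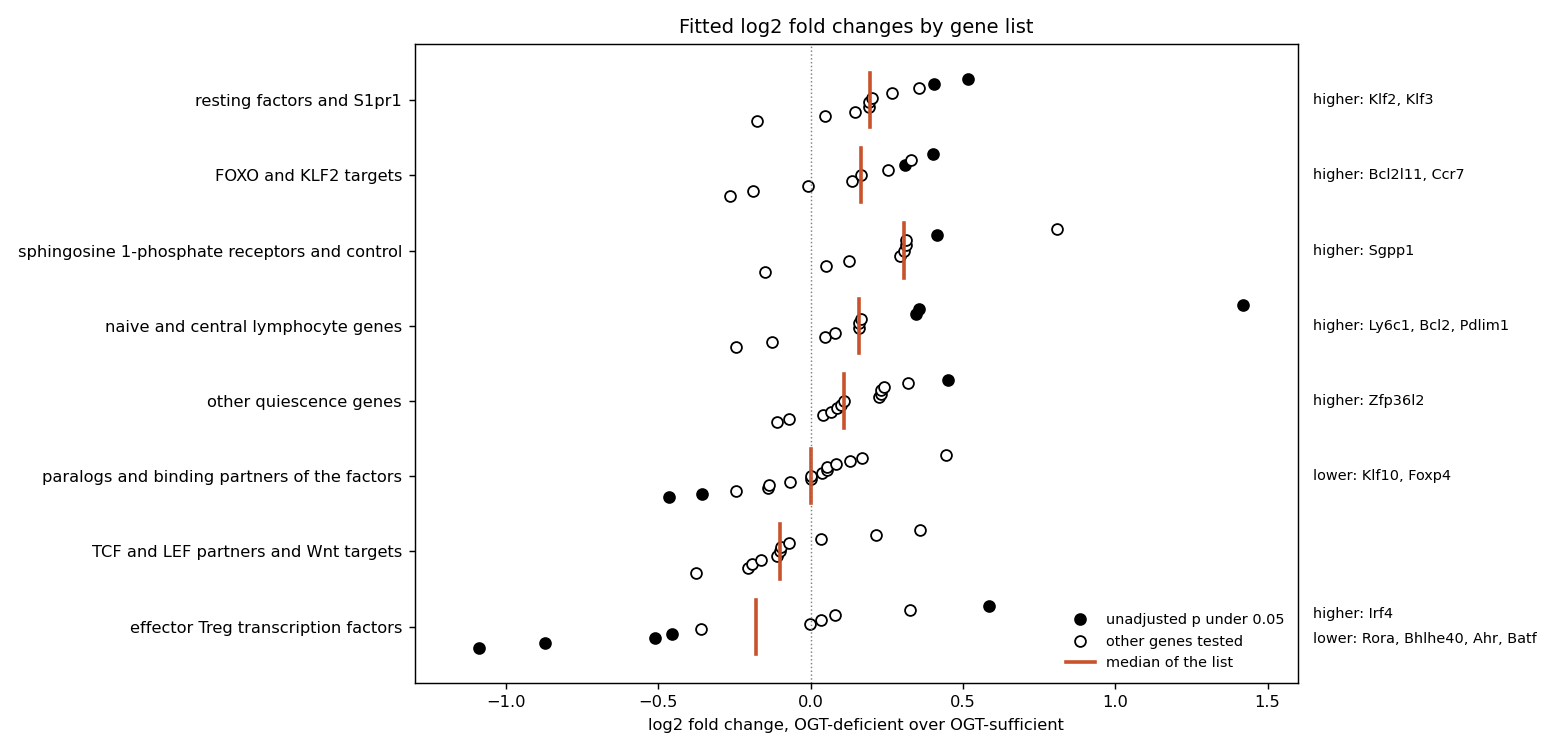
Fitted log2 fold change, OGT-deficient over OGT-sufficient (horizontal axis), of each tested gene in the members and 7 companion lists (rows), with filled points for an unadjusted p under 0.05 and an orange bar at the list's median. The names at the right give the filled points, and 0 genes of these lists passed an FDR of 0.1 in the reported fit.

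Genes of naive and central lymphocytes outside the members were described beside them. Of 10, 3 were higher and 0 lower at an unadjusted p under 0.05, with a median log2 fold change of 0.16 and 0 genes at an FDR of 0.1. *Ly6c1*, for a surface antigen of T cell subsets, was at 7.75, 9.43 and 7.11 CPM against 28.1, 22.5 and 14.4 CPM (log2 fold change 1.42, SE 0.27, edgeR adjusted p = 0.212). The survival gene *Bcl2* had a log2 fold change of 0.36 and *Pdlim1* of 0.35 (adjusted p = 0.565 and 0.686). The groups of *Ly6c1*, *Bcl2* and *Pdlim1* did not overlap. Without OGT-sufficient replicate 3 the unadjusted p of *Pdlim1* was 0.0583, and in the T cell scale *Bcl2* was at 0.09 (unadjusted p of 0.662) and *Pdlim1* at 0.07 (unadjusted p of 0.733). *Dgka* and *Actn1*, the most abundant of the list, were at 0.05 and 0.16 (adjusted p = 0.957 and 0.882). Of 10 effector Treg transcription factors, which are active in activated Treg cells, 1 was higher and 4 lower at an unadjusted p under 0.05, with a median of -0.18. With each sample left out the median was between -0.43 (without OGT-deficient replicate 3) and -0.03 (without OGT-sufficient replicate 1 or 2), and 2 to 5 genes were lower: 2 without OGT-sufficient replicate 1 or 2 or OGT-deficient replicate 1 or 2, and 5 without OGT-sufficient replicate 3. The higher gene was *Irf4* (log2 fold change 0.58, adjusted p = 0.306, and 0.36 with an unadjusted p of 0.127 in the T cell scale), and the lower genes were *Rora* (-1.09, 0.189), *Bhlhe40* (-0.87, 0.385), *Batf* (-0.45, 0.577) and *Ahr* (-0.51, 0.685). *Maf* and *Gata3*, the most abundant of this list, were at 0.00 and 0.33 (0.999 and 0.724). *Maf* was at 174, 193 and 106 CPM against 85.1, 170 and 217 CPM. Like the macrophage sum, *Maf* was lowest in OGT-deficient replicate 1 and highest in OGT-deficient replicate 3. The part of macrophage transcripts in its level was not tested. With the macrophage list as a covariate, chosen after seeing the data, the median of the effector list was -0.34. Whether the members differed from these lists was not tested.

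Among the tested genes outside the list whose centred log2 CPM over the 6 samples lay nearest to the members' mean profile were *Sympk* (root mean square difference 0.0259), *BC003965* (0.034), *Snap29* (0.0379) and *Sf3a3* (0.0451). Their log2 fold changes were 0.19, 0.26, 0.26 and 0.25, with edgeR unadjusted p between 0.0548 and 0.271. *Sympk* was at 82.6, 84.9 and 87.4 CPM with OGT and at 108, 98.7 and 83.9 CPM without it. Like the members' mean it was highest in OGT-deficient replicate 1, and in OGT-deficient replicate 3 it lay within the OGT-sufficient range.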

How the data were processed

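The authors trimmed paired-end reads with Trimmomatic 0.33 and aligned them with Bowtie2 2.2.4.0 to mm10. The submitters' processing notes name featureCounts as the counter, while the paper names Cuffquant, and the annotation, strand setting and handling of shared reads are not given in the sources used here. The authors deposited a whole number per gene and sample, used here as a raw count. The deposited table also holds statistics of their own comparison (p-values, fold changes, weighted differences and corrected values, and group means and ranges), which were not used. The analysis used edgeR 4.0.16 in R 4.3.3, with TMM scaling, filterByExpr (minimum count 10), the quasi-likelihood test without a replicate block, and Benjamini-Hochberg adjustment over 10949 genes. Standard errors (SE) were derived from the log2 fold change and its F statistic. The code was tested on simulated data. A floor of 3 counts is 0.759 to 0.808 CPM, which covers counting error only. Samples were grouped by genotype, and since the labels state only replicates, p-values measure the spread between these samples.

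The members, the companion lists and the tests were chosen with earlier results of these data known. Named genes are *Ogt*, the members, for each companion list the genes with an unadjusted p under 0.05 (the 4 lowest where there were more) and its 2 most abundant, and the 5 genes nearest to the members' profile. Some genes that this rule selects are not reported here and were left out of the list counts. The T cell genes, the marker genes and *Rn45s* were named outside this rule. Alternatives were DESeq2 1.42.0, edgeR's exact test, DESeq2 size factors, library size only, 2 filters, the replicate block, and each sample left out. A macrophage covariate, scaling to T cell genes and leaving out the 2 samples with the lowest macrophage sums of their groups were added after seeing the data. Gene positions, exon lengths and overlaps come from GENCODE M21 on GRCm38, the assembly of mm10, and the promoter from RefSeq GRCm38.p6.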

Additional observations from a re-analysis of the deposited data

How the results depend on the processing

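Over 16 alternative settings the log2 fold change of *Klf2* was 0.27 to 0.66 (edgeR or DESeq2 adjusted p 0.065 to 0.997) and that of *Klf3* 0.14 to 0.49 (0.214 to 0.997), and each had an unadjusted p under 0.05 in 15 of 16, the exception being T cell scaling. Without a low-count filter 1 member, *Klf2*, passed an FDR of 0.1, and in the other 15 alternatives 0 did. Of the effector Treg transcription factors 3 passed with edgeR's exact test, 3 without a filter and 2 without the 2 samples of low macrophage sums. In this list 1 passed with DESeq2, the macrophage covariate, T cell scaling or OGT-sufficient replicate 3 left out. Of the naive and central lymphocyte genes 1 passed with DESeq2, the exact test, no filter or the macrophage covariate. Members with an unadjusted p under 0.05, 2 in the reported fit, were 2 to 5 with each sample left out: 4 without OGT-sufficient replicate 3 (*Bach2* and *Satb1* added) and 5 without OGT-deficient replicate 3 (*Foxo1*, *Id3* and *Lef1* added). They were 4 without the 2 samples of low macrophage sums, and 1 with T cell scaling (*Tcf7*, lower). The members' median was 0.11 to 0.31 with each sample left out and reversed to -0.073 with T cell scaling. That setting, chosen after seeing the data, also reversed *Foxo1* (-0.0017), *Foxp1* (-0.13), *Lef1* (-0.082), *S1pr1* (-0.065), *Satb1* (-0.094) and *Bach2* (-0.26), and its own construction sets T cell genes to no change on balance. *Bach2* also reversed with library size only (-0.026), and ran from -0.061 to 0.37 with each sample left out, below 0 without OGT-sufficient replicate 1 (-0.029), OGT-sufficient replicate 2 (-0.061) or OGT-deficient replicate 1 (-0.028). The cause was not tested.

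Genes passing an FDR of 0.1 over the whole table, 3 in the reported fit, were 131 without a filter, 38 with DESeq2, 80 with edgeR's exact test, 31 with the macrophage covariate, 10 with T cell scaling and 80 without the 2 samples of low macrophage sums. With each sample left out they were 0 to 9 (9 without OGT-sufficient replicate 3, 0 without OGT-deficient replicate 2 or replicate 3, where 462 and 742 genes had an unadjusted p under 0.05). With the replicate number as a block they were 0 (679 at an unadjusted p under 0.05), while 2 members still had an unadjusted p under 0.05. The correlations between same-numbered samples, of deviations from the group means, were -0.28, 0.0073 and -0.12. They showed no pairing by number. Whether same-numbered samples shared a litter, sort or batch was not stated and cannot be decided from so few values. With 3 samples a group an exact permutation test cannot give a p under 0.1.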
